A study of Mus musculus with 6 samples.

Results

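Cytochrome c oxidase, complex IV of the respiratory chain, was followed here through 10 of its genes in developing mouse gastrocnemius muscle. The genes were Cox4i1, Cox4i2, Cox6a1, Cox6a2, Cox6b1, Cox7a1, Cox7a2, Cox7a2l, Cox8a and Cox8b, taken by symbol from the deposited table. All 10 were found among 23367 gene entries, and all 10 passed the filter on low counts that kept 16882 genes for testing. The set was chosen from earlier results on these libraries, in which the PN2 and PN28 values of Cox7a1, Cox8a and Cox6a1 were known, so values at PN2 and PN28 are given below as a description with no test.

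The animals were wild-type FVB mice with no treatment named in the labels, and the 6 libraries covered 5 stages. The library for embryonic day 18.5 (E18.5) was a pool of male and female mice, and that for postnatal day 2 (PN2) was a pool of males. PN14 had replicates 1 and 2, each from 1 male, while PN28 and the adult stage at 22 weeks had 1 male each. Pooling, sex and sequencing lane differed between libraries along with stage, and their part in any difference between stages cannot be told apart from that of age. Library totals lay between 125402932 and 157868359 counts. The 8 fast fibre markers were all above 1 FPKM in every library (Ckm between 4189 and 21722 FPKM), and 2 or 3 of 7 cardiac markers were at 1 FPKM or more in each. Of these cardiac markers Nppa and Nppb stayed at or under 0.12 FPKM, whereas Myh6 lay between 13.1 and 51.3 FPKM, Tnni3 reached 2.42 FPKM, and Myl4, also made by fetal skeletal muscle, reached 814 FPKM.

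Complex IV passes electrons from cytochrome c to oxygen and pumps protons as it does so. Its catalytic core is encoded by mitochondrial DNA, and a set of small nuclear-encoded subunits surrounds that core. Several of these small subunits exist as a heart and skeletal muscle isoform and an isoform made in most tissues, each from its own gene, and fetal muscle is known to use more of the ubiquitous isoforms than adult muscle does.

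Among the 10 genes, Cox6a2, Cox7a1 and Cox8b encode the heart/muscle isoforms of subunits 6a, 7a and 8, and Cox6a1, Cox7a2 and Cox8a encode their ubiquitous partners. Cox4i1 encodes the common form of subunit 4, and Cox4i2 encodes the form known from lung. Cox6b1 encodes the common form of subunit 6b, on the intermembrane space side of the complex. Cox7a2l encodes a relative of subunit 7a that joins complexes III and IV in supercomplexes.

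The isoforms of a pair differ enough in sequence for reads to be told apart. Coding sequences were 67.0% identical over 279 aligned bases for Cox6a2 and Cox6a1, and also 67.0% identical for Cox7a1 and Cox7a2, with the longest identical run at 12 bases in either pair. Cox8b and Cox8a were 70.6% identical with a longest run of 10 bases, and Cox4i2 and Cox4i1 were 70.5% identical with a longest run of 14. A near-identical copy in the genome, set at 95% identity or more over at least 100 bases, was found only for Cox7a2l. That copy, Gm6969, matched 1077 bases at 98.0% identity and has no entry in the table, so Cox7a2l values are uncertain. At 90% identity or more, Cox6a1 and Cox7a2 had 1 copy each, Cox8a had 2 and Cox6b1 had 4.

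Chromosome 7 of mm9 carries 4 of the 10 genes, including all 3 that encode heart/muscle isoforms. Cox6a2 lies on the minus strand at chr7:135348950-135349880 and Cox8b, also on the minus strand, at chr7:148084842-148086345. Cox7a1 lies on the plus strand at chr7:30969190-30971047, and Cox6b1 on the minus strand at chr7:31401993-31411170. Their ubiquitous partners were elsewhere, with Cox6a1 at chr5:115795651-115798990, Cox7a2 at chr9:79603048-79607660 and Cox8a at chr19:7289648-7292106, each on the minus strand. Cox4i1 lies at chr8:123192190-123198109 and Cox4i2 at chr2:152579909-152590773, both on the plus strand, and Cox7a2l at chr17:83901259-83913673 on the minus strand.

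Promoter sequences are shown for the subunit 7a and subunit 8 pairs, since within either pair the isoform genes took different courses with age. They are the 250 bases before the RefSeq start, read 5′ to 3′ on the gene's own strand from a RefSeq table for GRCm38.p6 and found again without a mismatch in mm9. Of the 10 genes, 7 were matched in that table, and Cox4i1, Cox4i2 and Cox6a2 were not. The windows lie at chr7:30968940-30969189 for Cox7a1, chr9:79607661-79607910 for Cox7a2, chr7:148086346-148086595 for Cox8b and chr19:7292107-7292356 for Cox8a. Capitals mark CANNTG (the E-box), CCAAT (the CCAAT box), GGGCGG (the GC box) and CCGGAAG (the ETS motif) on either strand, the last cut short at the start site in Cox8a.
Cox7a1: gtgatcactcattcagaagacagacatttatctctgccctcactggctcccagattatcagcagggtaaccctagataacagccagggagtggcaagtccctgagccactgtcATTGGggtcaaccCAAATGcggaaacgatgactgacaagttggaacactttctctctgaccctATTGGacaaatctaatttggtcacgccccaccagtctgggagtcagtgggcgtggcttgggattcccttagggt
Cox7a2: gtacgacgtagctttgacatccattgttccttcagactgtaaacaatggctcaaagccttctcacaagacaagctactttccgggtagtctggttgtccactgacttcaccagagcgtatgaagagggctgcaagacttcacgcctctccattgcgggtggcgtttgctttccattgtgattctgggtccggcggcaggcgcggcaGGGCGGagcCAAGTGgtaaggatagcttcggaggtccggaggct
Cox8b: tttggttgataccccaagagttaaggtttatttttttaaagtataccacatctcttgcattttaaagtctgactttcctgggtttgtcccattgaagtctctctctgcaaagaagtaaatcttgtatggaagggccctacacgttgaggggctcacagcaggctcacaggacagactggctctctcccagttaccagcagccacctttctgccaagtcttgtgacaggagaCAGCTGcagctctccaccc
Cox8a: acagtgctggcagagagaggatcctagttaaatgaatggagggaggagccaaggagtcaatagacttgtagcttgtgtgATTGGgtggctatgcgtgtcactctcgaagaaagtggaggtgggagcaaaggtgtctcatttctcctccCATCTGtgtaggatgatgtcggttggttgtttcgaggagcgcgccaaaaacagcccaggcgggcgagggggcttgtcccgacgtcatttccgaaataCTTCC

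The heart/muscle genes had fewer CpG dinucleotides in these windows than their partners. Cox8b held 1 CpG and Cox7a1 held 4, against 11 in Cox8a and 14 in Cox7a2, with a median of 6 over 32851 windows of this length in the RefSeq table. The other matched windows held 26 CpG (Cox6a1), 14 (Cox6b1) and 13 (Cox7a2l). With 2 heart/muscle windows available this is a description.

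Motifs were searched on both strands over 300 bases, from 250 before the start to 50 after it. CANNTG was present in 6 of the 7 matched genes, all but Cox6a1, and in 72.3% of all windows. CCGGAAG was in Cox6a1, Cox6b1 and Cox8a and in 8.86% of all windows, though in Cox8a no copy lay wholly before the start. GATGGCG (the YY1 motif) was in Cox6a1, after the start, and in 3.49% of windows. GCATGCGC, the motif of nuclear respiratory factor 1, was in Cox6a1 at overlapping positions on both strands and in 2.71% of windows. GGGCGG was in Cox6a1, Cox7a2 and Cox7a2l (35.7% of windows) and CCAAT in Cox6a1, Cox6b1, Cox7a1 and Cox8a (37.4%). TATAAA was in Cox8b (13.6% of windows), at a position after the start and so outside the 250 bases shown. Neither the MEF2 motif (3.19% of windows) nor TNAAGGTCA, the motif of estrogen-related receptors (1.28%), was in any of the 7 windows.

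The 3 heart/muscle genes were lower before PN14 than from PN14 on. Cox6a2 (PN14 replicate 1 is given first throughout) had 305 FPKM at E18.5 and 357 FPKM at PN2, then 1829 and 1555 FPKM in the PN14 pair, 1337 FPKM at PN28 and 1703 FPKM in the adult. FPKM scales fragment counts to transcript length and to the library total, so levels can be set side by side between genes. The value of Cox8b, which encodes a very small membrane subunit, went from 181 FPKM before birth and 267 FPKM at PN2 to 1148 and 960 FPKM in the PN14 pair, 938 FPKM by PN28 and 1100 FPKM when adult. Cox7a1, the heart/muscle gene of subunit 7a, had 60.7 FPKM at E18.5 and 89.0 FPKM at PN2, then 987 and 965 FPKM in the PN14 pair, 706 FPKM at PN28 and 590 FPKM in the adult. For each of the 3 genes the E18.5 and PN2 values lay below all 4 later values. The adult FPKM of Cox6a2 and Cox8b lay inside the range of the PN14 replicates, but with TMM scaling it lay above both (2386 against 2174 and 1545 for Cox6a2, 1542 against 1365 and 954.5 for Cox8b). The adult level of Cox7a1 lay below both replicates on either scale.

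Their ubiquitous partners took different courses. Cox6a1 had 288 FPKM at E18.5 and 233 FPKM at PN2, then 83.8 and 152 FPKM in the PN14 pair, 74.4 FPKM at PN28 and 39.7 FPKM in the adult. Cox8a had 391 FPKM at E18.5 and 328 FPKM at PN2, then 93.4 and 183 FPKM in the PN14 pair, 72.8 FPKM at PN28 and 43.5 FPKM in the adult. Both genes were highest at E18.5 and lowest in the adult. Cox7a2 had 257 FPKM at E18.5 and 266 FPKM at PN2, then 348 and 466 FPKM in the PN14 pair, 239 FPKM at PN28 and 191 FPKM in the adult. It was the only ubiquitous partner with its highest values at PN14, and its E18.5, PN2 and PN28 levels lay within 239 to 266 FPKM. With TMM scaling its PN28 level (303.8) lay above those at E18.5 (176.9) and PN2 (183.4). The PN14 pair was still highest on that scale (413.2 and 462.8).

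**Figure D1:**
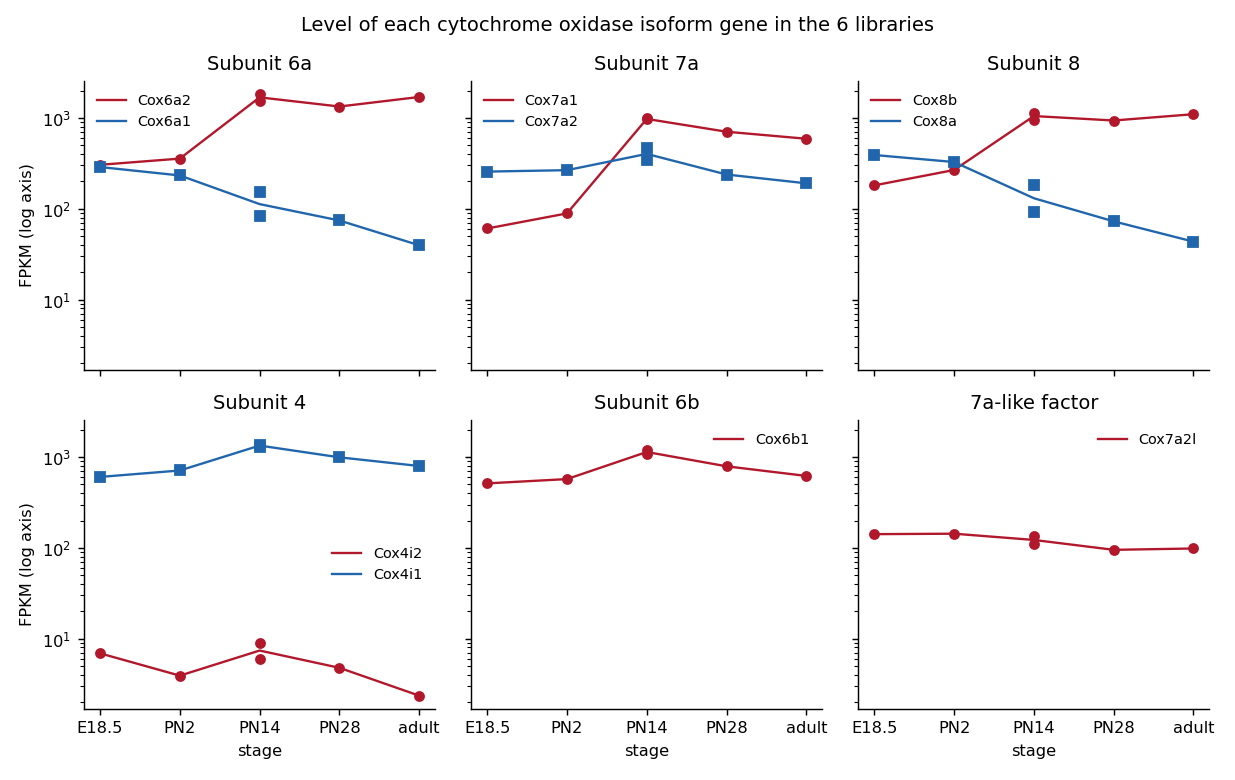
FPKM of the 10 genes on a log axis against stage, with 1 point per library and lines through the single libraries and the geometric mean of the PN14 pair. The lines of Cox6a2 and Cox6a1 start next to each other at E18.5 (305 and 288 FPKM) and end at 1703 and 39.7 FPKM in the adult, those of Cox7a1 and Cox8b cross their partners after PN2, and Cox4i2 stays at or under 9.08 FPKM.

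The PN14 replicates differed most in Cox6a1 and Cox8a, with and without TMM scaling. Replicate 2 had 1.81 times the FPKM of replicate 1 for Cox6a1, 1.96 times for Cox8a, 1.5 times for Cox4i2 and 1.34 times for Cox7a2, while the ratio was 0.978 for Cox7a1, 0.850 for Cox6a2 and 0.836 for Cox8b. Markers of other cells also differed between these mice, not all in the same direction. The 5 proliferation markers, all above 1 FPKM in both, summed to 11.9 FPKM in replicate 1 and 30.1 in replicate 2, and the 9 pericyte and smooth muscle markers to 234 and 394. The erythroid sum was lower in replicate 2 (2210 and 1220 FPKM), as were the slow fibre sum (4230 and 3360) and the fast fibre sum (118000 and 93100). Over stages, the proliferation sum was 146 FPKM before birth and 95.4 FPKM by PN2, with 12.6 FPKM by PN28 and 0.44 FPKM when adult, and that of 5 fibroblast markers went from 4410 at E18.5 to 438 in the adult. Their part in the levels of Cox6a1 and Cox8a was not tested. In bulk tissue, fewer cells of a type and less RNA per cell cannot be told apart.

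Within each pair the share of the heart/muscle isoform does not depend on how libraries are scaled. Cox6a2 made up 51.4% of the subunit 6a FPKM before birth (E18.5) and 60.5% at PN2, then 95.6% and 91.1% in the PN14 pair, 94.7% by PN28 and 97.7% when adult. Cox8b made up 31.7% of the subunit 8 FPKM before birth (E18.5) and 45.0% at PN2, then 92.5% and 84.0% in the PN14 pair, 92.8% by PN28 and 96.2% when adult. Cox7a1 made up 19.1% of the subunit 7a FPKM before birth (E18.5) and 25.1% at PN2, then 74.0% and 67.5% in the PN14 pair, 74.7% by PN28 and 75.6% when adult. All 3 shares were lowest at E18.5 and highest in the adult, with the largest step between PN2 and PN14. Subunit 6a was evenly shared before birth, and subunit 7a kept 24.4% of its FPKM on the ubiquitous gene in the adult, against 2.28% for subunit 6a and 3.81% for subunit 8.

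**Figure D2:**
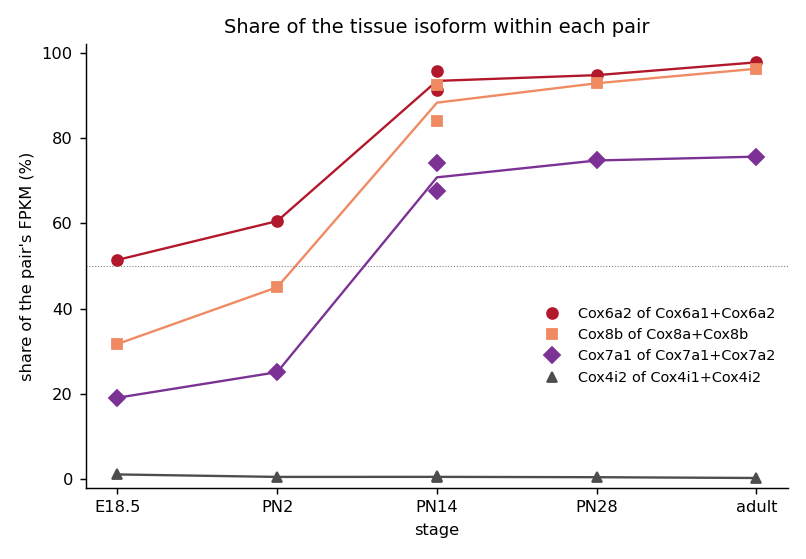
Share of the tissue isoform in the summed FPKM of its pair (%, y axis) by stage, with 1 point per library and a line through the stage means. The points of Cox6a2 and Cox8b reach 97.7% and 96.2% in the adult, those of Cox7a1 level off between 67.5% and 75.6% from PN14 on, and those of Cox4i2 stay at or under 1.13%.

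From E18.5 to adult, the ratio of heart/muscle to ubiquitous isoform was 40.5 times higher for subunit 6a (1.06 to 42.9), 13.1 times for subunit 7a (0.236 to 3.09) and 54.6 times for subunit 8 (0.463 to 25.3). The PN14 replicates differed from each other by 2.13 times, 1.37 times and 2.34 times in these ratios, so every one of the 3 changes was larger than the gap between the only replicates. As a description, from values that were known when the set was chosen, the ratios were 1.45, 1.41 and 1.76 times higher at PN2 than at E18.5, and 9.77, 7.26 and 9.83 times higher at PN14 than at PN2. From PN14 to adult they were 2.87, 1.27 and 3.15 times higher, and the value for subunit 7a lay within its gap. Without PN14 replicate 2 the log2 difference from PN14 to adult was 0.97 for subunit 6a (1.52 with both) and 1.04 for subunit 8 (1.65 with both), smaller than the gap between the replicates (1.09 and 1.23). With single libraries at the other stages, these ratios carry no test.

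The level of a ratio depends on the gene length by which the authors divided, but its change between stages does not. The deposited values imply lengths of 311 to 312 bases for Cox7a1 and 699 to 701 for Cox7a2. In expected counts, with no length, Cox7a1 was 0.105 times Cox7a2 at E18.5 and 1.37 times in the adult. For subunit 6a the count ratio was 1.34 at E18.5 and 54.2 in the adult, and for subunit 8 it was 0.291 and 15.9.

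The summed output of each pair was higher after PN2. The subunit 6a genes together had 594 FPKM at E18.5 and 590.0 FPKM at PN2, then 1912 and 1706 FPKM in the PN14 pair, 1411 FPKM at PN28 and 1742 FPKM in the adult. The subunit 8 genes together had 572 FPKM before birth and 595 FPKM at PN2, and between 1011 and 1241 from PN14 on. The subunit 7a genes together had 318 and 355 FPKM at E18.5 and PN2, then 1335 and 1431 FPKM in the PN14 pair, 944 FPKM by PN28 and 781 FPKM when adult. The pre-PN14 sums lay below all later sums in the 3 pairs.

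Changes between stages were tested with edgeR's quasi-likelihood test on expected counts, scaled between libraries by the TMM method, with Benjamini-Hochberg adjustment over all 16882 genes. Calls needed an adjusted p below 0.05 together with a log2 fold change of 1 or more in either direction. Each standard error (SE) was worked back from the test, as the size of the log2 fold change over the square root of its F statistic. The 3 comparisons of E18.5, PN14 and adult share libraries with each other. The spread comes from the PN14 pair alone, so the test assumes that the single libraries vary as PN14 does. With 1 residual degree of freedom beside a median prior of 4.86, each gene's spread was drawn mostly from other genes. An SE therefore need not cover the replicate gap of its own gene. Replicate 2 differed from replicate 1 by 63.9% in Cox8a and -11.9% in Cox4i1 (TMM). Their SEs from E18.5 to PN14 were 0.30 and 0.38. Scaling matters here. With library size alone all tested genes had a median log2 fold change of -1.08 from E18.5 to adult, -0.67 from E18.5 to PN14 and -0.42 from PN14 to adult, against -0.05, -0.02 and -0.05 with TMM, and the FPKM values carry that same shift.

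From E18.5 to adult, 5 of the 10 genes rose and 2 fell, beside 21.4% of all tested genes that rose and 23.6% that fell. The median log2 fold change of the 10 was 0.95, against -0.05 over all genes tested. Cox7a1 rose 19.8-fold (log2 fold change 4.31 ± 0.34 SE, adjusted p = 0.00123), Cox8b rose 12.4-fold (3.63 ± 0.41, adjusted p = 0.00183) and Cox6a2 rose 11.4-fold (3.51 ± 0.53, adjusted p = 0.00347). Cox8a fell 4.41-fold (-2.14 ± 0.37, adjusted p = 0.00555) and Cox6a1 fell 3.57-fold (-1.83 ± 0.33, adjusted p = 0.00593). These 5 calls were made under library size alone as well.

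The common forms of subunits 4 and 6b had smaller fold changes. Cox4i1 rose 2.69-fold (log2 fold change 1.43 ± 0.41 SE, adjusted p = 0.0291) and Cox6b1 rose 2.46-fold (1.299 ± 0.34, adjusted p = 0.0213), and with library size alone neither call was made (0.40 and 0.27). Cox7a2 (0.60 ± 0.28, adjusted p = 0.122), Cox7a2l (0.50 ± 0.24, adjusted p = 0.119) and Cox4i2 (-0.52 ± 0.34, adjusted p = 0.238) did not pass. With library size alone the values of Cox7a2 and Cox7a2l were below 0, at -0.43 and -0.52, and Cox4i2 was called as lower (-1.54).

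From E18.5 to PN14, 6 of the 10 genes rose, beside 15.1% of all tested genes. No member was called as lower by edgeR's quasi-likelihood test, edgeR's exact test or DESeq2's Wald test, beside 15.7% of all tested genes. By the quasi-likelihood test, 2 were lower at an unadjusted p under 0.05. Cox7a1 rose 25.6-fold (4.68 ± 0.34, adjusted p = 0.00153), Cox8b rose 9.32-fold (3.22 ± 0.38, adjusted p = 0.00323) and Cox6a2 rose 8.86-fold (3.15 ± 0.49, adjusted p = 0.00624). Cox4i1 and Cox6b1 rose 3.51-fold each (adjusted p = 0.0146 and 0.00853), and Cox7a2 rose 2.48-fold (adjusted p = 0.0122). The call of Cox7a2 was not made with library size alone (log2 fold change 0.67).

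Cox6a1 and Cox8a had not passed the quasi-likelihood test by PN14. Their log2 fold changes from E18.5 were -0.66 ± 0.27 SE (adjusted p = 0.0944) and -0.88 ± 0.30 (adjusted p = 0.0617). By edgeR's exact test the adjusted p was 0.0292 and 0.00344, and by DESeq2's Wald test 0.087 and 0.025. Under those 2 tests the log2 fold changes were also under 1 in size, so no call was made. With library size alone both were called as lower (-1.29 and -1.50). The values rested on which PN14 mouse was used, at -0.40 and -0.56 without replicate 1 and -1.002 and -1.285 without replicate 2. Cox4i2 (0.77, adjusted p = 0.0832) and Cox7a2l (0.45, adjusted p = 0.132) did not pass either.

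From PN14 to adult, no member rose by any of these 3 tests, and none was higher at an unadjusted p under 0.05, beside 5.66% of all tested genes that rose. The genes that fell were Cox4i2 (-1.29 ± 0.31, adjusted p = 0.0383), Cox8a (-1.27 ± 0.33, adjusted p = 0.0464) and Cox6a1 (-1.17 ± 0.29, adjusted p = 0.041), 3 of 10 beside 9.82% of all tested genes. The call of Cox8a was not made when genes were filtered on a mean CPM of 1 or more (adjusted p = 0.0542), which left 2 of 10. Without PN14 replicate 2, which had the higher Cox6a1 and Cox8a levels, the values were -0.85 for Cox6a1 and -0.87 for Cox8a, under the threshold in size. The heart/muscle genes did not pass, at 0.36 for Cox6a2, 0.41 for Cox8b and -0.37 for Cox7a1, and neither did Cox7a2 at -0.71 (adjusted p = 0.096).

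**Figure D3:**
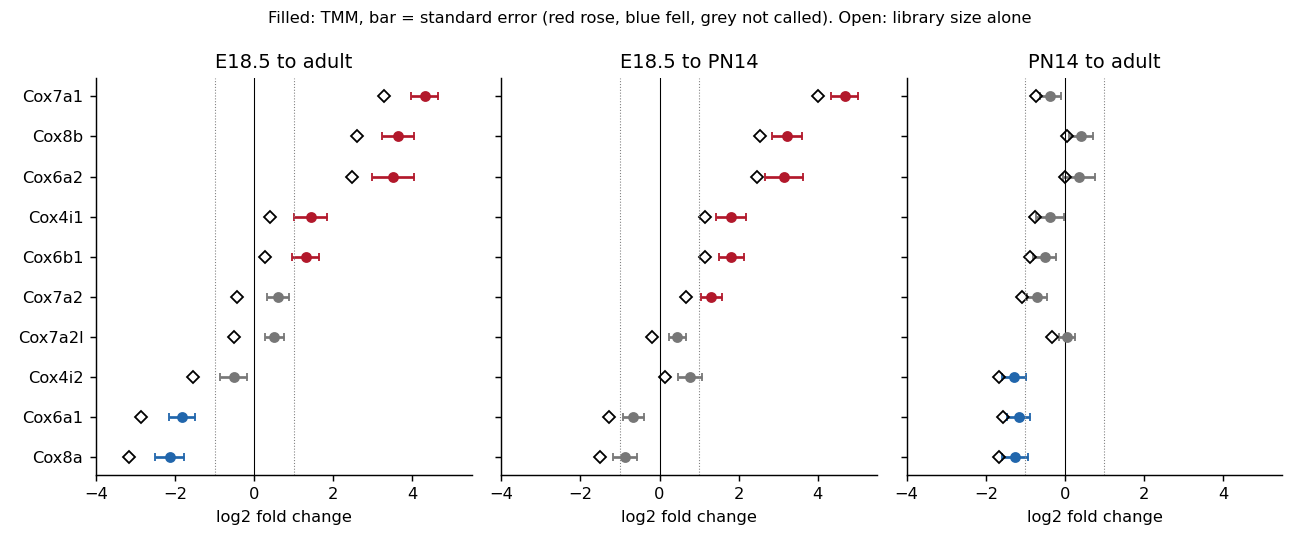
Log2 fold change (x axis) of the 10 genes in the 3 tested comparisons, with filled points for TMM scaling, bars for 1 standard error and open diamonds for scaling by library size alone. Cox7a1, Cox8b and Cox6a2 stand between 3.15 and 4.68 in both comparisons that start at E18.5 and close to 0 from PN14 to adult, where Cox6a1, Cox8a and Cox4i2 lie beyond -1.

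The subunits of complex IV with no other isoform above 3 counts in these libraries, called single-isoform subunits here, gave a reference within the complex, free of scaling between libraries. The geometric mean FPKM of 5 of them, Cox5a, Cox5b, Cox6c, Cox7b and Cox7c, was 317 FPKM at E18.5 and 355 FPKM at PN2, 813 and 865 FPKM in the PN14 pair, 662 FPKM at PN28 and 529 FPKM in the adult. Of the 3 heart/muscle genes, Cox6a2 stood at 0.963 times this mean at E18.5 and 3.22 times in the adult, Cox8b at 0.572 and 2.08 times, and Cox7a1 at 0.192 and 1.12 times. All 3 were therefore higher in the adult relative to these 5 subunits, by 3.34, 3.64 and 5.82 times.

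The ubiquitous partners were lower relative to the same mean, Cox7a2 included. Cox6a1 stood at 0.910 times the mean at E18.5 and 0.0750 times in the adult, which was 12.1 times lower. Cox8a went from 1.23 to 0.0822, which was 15.0 times lower. Cox7a2 went from 0.811 at E18.5 and 0.751 at PN2 to 0.428 and 0.538 at PN14 and 0.360 in the adult, which was 2.25 times lower.

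Cox4i1 and Cox6b1 stayed closest to the single-isoform subunits. Cox4i1 was between 1.5 and 2.00 times their mean in the 6 libraries, and Cox6b1 between 1.17 and 1.62 times. Cox7a2l stood at 0.447 times at E18.5 and 0.186 times in the adult, and Cox4i2 at 0.0218 and 0.00446 times. These ratios were not tested.

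**Figure D4:**
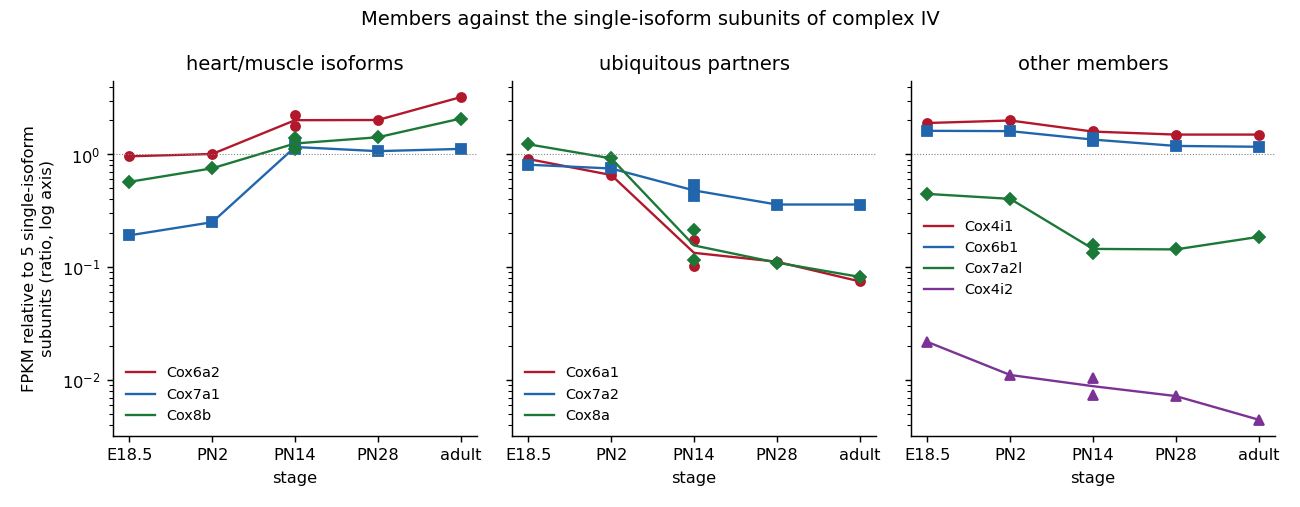
FPKM of each gene divided by the geometric mean FPKM of 5 single-isoform subunits in the same library (log axis) by stage, with 1 point per library and lines through the single libraries and the geometric mean of the PN14 pair. The heart/muscle isoforms end above 1 in the adult (1.12 to 3.22), the ubiquitous partners end at 0.0750 to 0.360, and Cox4i1 and Cox6b1 stay between 1.17 and 2.00.

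The common subunits Cox4i1 and Cox6b1 were among the 4 most abundant of the 10 genes at every stage. Cox4i1 had 603 FPKM at E18.5 and 710 FPKM at PN2, then 1302 and 1372 FPKM in the PN14 pair, 992 FPKM at PN28 and 796 FPKM in the adult. Cox6b1 had 512 FPKM at E18.5 and 572 FPKM at PN2, then 1074 and 1201 FPKM in the PN14 pair, 790 FPKM at PN28 and 619 FPKM in the adult. Both peaked at PN14, and their centred log2 profiles differed by a root mean square of 0.0577 over the 6 libraries. Cox7a2l varied least, from 95.1 FPKM at PN28 to 143 at PN2. With TMM scaling it also varied least, but was lowest at E18.5 (97.45) and highest in the adult (137.9).

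Cox4i2, the lung-type form of subunit 4, was present at low levels. It had 6.90 FPKM at E18.5 and 3.92 FPKM at PN2, then 6.04 and 9.08 FPKM in the PN14 pair, 4.78 FPKM at PN28 and 2.36 FPKM in the adult, from between 227 and 919 counts. The PN14 values lay on either side of the E18.5 value in FPKM and above it with TMM scaling (7.18 and 9.03 against 4.75), and were above those of PN2, PN28 and adult. Its share of the subunit 4 FPKM was 1.13% at E18.5 and between 0.296% and 0.658% in the 5 later libraries. With TMM scaling Cox4i2 was lowest at PN2 (2.70, against 3.31 in the adult). The pericyte and smooth muscle marker sum was lowest in the adult (138 FPKM, 194 with TMM scaling), but its genes did not all go the same way. In FPKM Higd1b, Kcnj8, Notch3 and Cspg4 were lowest in the adult, whereas Rgs5 was lowest at E18.5 (21.4, against 32.5 in the adult). FPKM carries the scaling shift between libraries, and these single markers were not ranked by stage with TMM scaling. On the TMM scale Higd1b was not lower in the adult than at E18.5 (log2 fold change 0.41 ± 0.35 SE, not called). Abcc9, also on that list, had a log2 fold change of 2.11 from E18.5 to adult. The part of these cells in the level of Cox4i2 was not tested.

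The rest of complex IV gives the setting for these values. Of 38 other genes listed for the complex, 37 were in the table and 35 were tested. From E18.5 to adult 23 of the 35 rose and 2 fell, beside 21.4% and 23.6% of all tested genes. Their median log2 fold change was 1.29. From E18.5 to PN14 18 rose and 1 fell, beside 15.1% and 15.7% of all tested genes, with a median of 1.34. From PN14 to adult none rose by any of the 3 tests (3 were higher at an unadjusted p under 0.05) and 2 fell. Of all tested genes 5.66% rose and 9.82% fell, and the median of the 35 was 0.01. With library size alone the counts were 4 up and 3 down from E18.5 to adult, and 10 up and 2 down from E18.5 to PN14.

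With TMM scaling, all 6 remaining structural subunits rose in both comparisons that start at E18.5. Library size alone left 4 rises among all 35 other complex IV genes from E18.5 to adult and 10 from E18.5 to PN14. From E18.5 to adult the log2 fold change was 2.19 for Cox6c, 2.09 for Ndufa4, 1.88 for Cox5a, 1.77 for Cox7b, 1.74 for Cox5b and 1.25 for Cox7c. Cycs, which encodes the cytochrome c that donates electrons to the complex, rose by 1.83 on the same scale. Of 28 tested genes for assembly and copper or heme delivery, 17 rose and 1 fell, beside 21.4% and 23.6% of all tested genes. The largest rise was in Coa5 (2.20 ± 0.29 SE, adjusted p = 0.00255), an assembly factor.

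The 2 genes outside the set that fell from E18.5 to adult were isoforms or relatives of subunits. Cox6b2, the testis isoform of subunit 6b, fell by 3.30 on the log2 scale (adjusted p = 0.00276), from 7.55 FPKM at E18.5 to 0.39 in the adult. Ndufa4l2, a relative of Ndufa4 that is known to respond to low oxygen and was listed with the assembly genes, fell by 1.46 (adjusted p = 0.00292), from 45.3 to 8.07 FPKM. The other testis isoforms were at or near 0, with no count for Cox8c in any library and at most 3 for Cox7b2.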

How the data were processed

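Polyadenylated RNA of mouse gastrocnemius was sequenced in 6 libraries. The authors aligned reads to mm9 with TopHat 2.0.5 and used RSEM with RefSeq gene models to make the deposited expected counts, which are whole numbers and not normalized, and the deposited FPKM, scaled to gene length and library total only. Groups follow the labels. Members and lists were chosen with earlier results of these data known.

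Expected counts (125402932 to 157868359 per library) were rounded and fitted in R 4.3.3 with edgeR 4.0.16 (TMM, filterByExpr, quasi-likelihood, 5 stages, all 6 libraries), giving 1 residual degree of freedom and a common biological coefficient of variation of 0.188. The fit was also run on simulated counts, drawn with this same coefficient for all genes. That run cannot test whether the single libraries vary as the PN14 pair does. Ratios and shares used FPKM. Alternatives were library size alone, DESeq2 1.42.0 size factors or Wald test, edgeR's exact test, other filters, either PN14 replicate left out, count ratios and a median reference.

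Genes named outside the members were the 3 with the largest rise and up to 3 with the largest fall among called complex IV genes from E18.5 to adult, the single-isoform subunits, Cycs, and the 3 nearest profiles to 5 members. The Coa7 entry was found as Selrc1 and Coa1 was not matched. Positions and identities came from GENCODE M1 on mm9 (Biopython 1.88, BLAST), with promoters from RefSeq. Splicing and mitochondrial-encoded subunits were not analysed here.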

Additional observations from a re-analysis of the deposited data

How the results depend on the processing

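Depth did not limit these genes, whose lowest count was 227 (Cox4i2, adult), whereas the single PN14 pair limits every error given. The number of members called stayed within 1.5 times under all alternatives. Library size alone changed most: the other complex IV genes called numbered 7 from E18.5 to adult, 12 from E18.5 to PN14 and 4 from PN14 to adult (25, 19 and 2 with TMM), and 1 with DESeq2's Wald test from PN14 to adult. It turned the log2 fold change of Cox7a2 to -0.43 from E18.5 to adult and that of Cox7a2l to -0.52, -0.20 and -0.32 in the 3 comparisons, none of them called. It also ended the calls of Cox4i1 and Cox6b1 from E18.5 to adult and of Cox7a2 from E18.5 to PN14, and made calls of Cox4i2 from E18.5 to adult, Cox6a1 and Cox8a from E18.5 to PN14 and Cox7a2 from PN14 to adult (-1.09). Keeping genes with a mean CPM of 1 or more ended the call of Cox8a from PN14 to adult (adjusted p = 0.0542, edgeR). With the median of the single-isoform subunits as reference, the log2 changes from E18.5 to adult, E18.5 to PN14 and PN14 to adult were -0.54, -0.37 and -0.17 for Cox4i1 (-0.34, -0.26 and -0.08 with the geometric mean), -0.67, -0.37 and -0.30 for Cox6b1, and 2.34, 2.49 and -0.15 for Cox7a1, and -1.47 from E18.5 to adult for Cox7a2l. The cause of these differences was not tested. The other values kept their direction (log2 fold changes of members) or moved by less than the spread or 1.5 times (ratios and counts). For the ratios, 2 of these checks could not have come out otherwise. Leaving out a PN14 replicate always moves a ratio by less than a spread taken from that same pair. Count ratios differ from FPKM ratios only by a fixed gene length. Without a PN14 replicate no residual degree of freedom is left, so those values carry no test; without replicate 2, Cox6a1 and Cox8a from PN14 to adult were under the threshold in size (-0.85 and -0.87).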

Other observations

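Genes whose course over the 6 libraries was most like that of a member were ranked by the root mean square difference in centred log2 CPM (TMM) among 8831 tested genes with a mean of at least 10 CPM. Most like Cox6a2 were Ndrg2 (0.186), Chchd10 (0.201), which encodes a mitochondrial intermembrane space protein, and Pxmp2 (0.204), but Cox8b was closer still (0.115). Most like Cox8b were Pxmp2 (0.131), a peroxisomal membrane protein gene, Adck3 (0.132), which acts in coenzyme Q synthesis, and Sec14l5 (0.160). Cox7a1 stood further from other genes, with Slc38a3 (0.223), Pdzd7 (0.270) and Tnfaip2 (0.336) nearest and its closest member, Cox6a2, at 0.608.

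The genes nearest to Cox6a1 were Dpysl2 (0.0682), the sphingosine-1-phosphate receptor S1pr3 (0.0717) and the condensin subunit Ncapd2 (0.0726), and those nearest to Cox8a were Litaf (0.0906), Anxa5 (0.0915) and Frmd4a (0.1). None of these 6 encodes a respiratory chain subunit. Cox6a1 and Cox8a differed from each other by 0.181, and Cox8a ranked 124 among the genes nearest to Cox6a1. The 6 libraries of these profiles share depth and scaling, and the values are descriptions.

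Marker sums not given above went, in FPKM, from 171 at E18.5 to 66.8 in the adult for endothelial cells, from 59.6 to 6.82 for satellite cells, from 77.0 to 44.6 for macrophages, from 8940 to 393 for erythroid cells, from 374 to 378 for white adipocytes, from 10.9 to 1.15 for brown adipocytes (Ucp1 at or under 0.42 in every library) and from 841 to 18.1 for a cardiac list in which Myl4, also expressed by fetal skeletal muscle, held 814 at E18.5. The slow fibre sum went from 2880 to 1360 and the fast fibre sum from 24200 to 118000. With TMM scaling the macrophage sum turned round (53.0 to 62.5), the white adipocyte sum went from 258 to 530 and the slow fibre sum from 1980 to 1900. Their part in the values of the 10 genes was not tested.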
